A study of Mus musculus with 6 samples.

Results

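The mitochondrial ribosomal protein genes were taken as every symbol in the deposited table that starts with Mrpl or Mrps followed by a digit, leaving out 4 names with -ps. This gave 77 of 35186 gene symbols, 48 named for the large subunit (Mrpl) and 29 for the small subunit (Mrps). The RNA came from spleen memory B cells of C57BL/6J mice that bind NP, a hapten used as a model antigen. The wild-type group (WT) and the group labelled Nix-/-Bnip3-/- (DKO) had 3 libraries each, each made from about 1000 sorted cells. Values are given in the order of replicates 1 to 3, WT before DKO. Nix is the protein of Bnip3l, and it and Bnip3 are outer membrane receptors that mark mitochondria for removal by autophagy. The age of the animals, the cell types in which the genes were deleted and whether each library stands for its own animal are not in the labels, so each p-value measures the spread between these libraries, which may be technical.

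The mitochondrial ribosome sits in the mitochondrial matrix and makes the few proteins that the mitochondrial genome encodes, all of them subunits of the oxidative phosphorylation complexes. Its proteins are encoded in the nucleus, made in the cytosol and imported, while its RNA core is transcribed inside the organelle. The small subunit binds the messenger RNA and decodes it, and the large subunit forms the peptide bond and holds the exit tunnel. Structures of the mammalian particle place the products of Mrps30 and Mrps18a in the large subunit, and the product of Mrps36 is now assigned to the 2-oxoglutarate dehydrogenase complex. Subunits below go by symbol unless stated.

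Total counts per library ran from 312908 to 517057, and 1 count was worth 1.84 to 5.25 CPM of the library size after TMM scaling (normalized CPM below). Scaling factors were 0.695 to 0.812 in WT and 1.28 to 1.38 in DKO, and each DKO library had more genes with a count (23580 to 24787) than any WT library (17831 to 18486). Rank correlations (Spearman) over all genes were 0.483 to 0.491 among WT libraries and 0.707 to 0.723 among DKO libraries. Between WT and DKO libraries they were 0.537 to 0.568, so by this measure WT libraries were less alike than a WT and a DKO library. Symbols with 0 counts enter these correlations, and fewer genes had a count in WT. The values thus do not show that WT libraries resemble DKO libraries more than each other. What the low likeness among WT libraries adds to the contrasts below was not tested. The median log2 fold change of all 8895 tested genes, DKO over WT, was -0.17 with these factors and 0.62 with library totals alone, so a gene's value is to be read against that median. Neither targeted gene separated the groups, and their directions differed. Bnip3l had 1, 8 and 0 counts against 10, 16 and 41, higher on average in the libraries labelled as lacking it. Bnip3 had 25, 62 and 6 against 2, 24 and 11, lower on average in those libraries. The log2 fold changes were 1.76 (SE 1.19, edgeR adjusted p = 0.539) for Bnip3l and -2.50 (SE 1.13, edgeR adjusted p = 0.412) for Bnip3. The labels do not say which exons were deleted, so counts per gene cannot check the deletions. Directions are therefore between libraries as labelled. The defining B cell gene Cd79a had 3, 0 and 0 against 0, 2 and 4 counts, but other B cell markers had more, such as Ms4a1 with 28, 0 and 8 against 42, 70 and 65. Of the 14 B cell markers 5 were tested, 2 above 0 and 3 below. Among these 5, only Cr2 had groups apart, lower in DKO (50, 40 and 28 against 24, 36 and 30). The 14 markers, each with a count somewhere, summed to 389 to 705 normalized CPM in WT and 348 to 399 in DKO. For 11 T cell markers the sums were 308 to 987 and 153 to 256, for 10 monocyte and macrophage markers 209 to 684 and 554 to 966, for 10 neutrophil markers 220.2 to 399 and 133 to 1251, and for 8 erythroid markers, of which Hba-a2 and Hbb-bs had 0 counts, 61.8 to 157 and 22.6 to 35.0. Memory B cell markers (10 genes) summed to 166 to 972 and 294 to 383, and plasma cell markers (8 genes) to 125 to 278 and 75.5 to 387. The part of these markers in the values below was not tested. In bulk libraries such as these, fewer cells of a type and less RNA per cell cannot be told apart.

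More mitochondrial ribosomal protein genes were seen in the DKO libraries than in the WT libraries. At least 1 count was found for 43, 47 and 41 of the 77 genes in WT and for 61, 65 and 65 in DKO, a mean of 43.7 ± 3.06 against 63.7 ± 2.31 (SD, n = 3 libraries per group). Every DKO library lay above every WT library. The median over the 77 genes was 5.22, 3.86 and 5.25 normalized CPM in WT, the worth of 1 count, and 9.05, 12.9 and 11.6 in DKO. Both subunits showed it: 27, 28 and 23 against 38, 41 and 41 of the 48 Mrpl genes, and 16, 19 and 18 against 23, 24 and 24 of the 29 Mrps genes. Over all symbols of the table the share with a count moved the same way, 50.7% to 52.5% in WT and 67.0% to 70.4% in DKO, beside 53.2% to 61.0% and 79.2% to 84.4% of the mitochondrial ribosomal protein genes. Depth differed between libraries. At the depth of the smallest library, WT library 1, 52.96% to 55.8% of these genes were expected to have a count in WT and 74.6% to 81.3% in DKO, beside 47.7% to 52.3% and 63.1% to 65.1% of all genes.

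**Figure D1:**
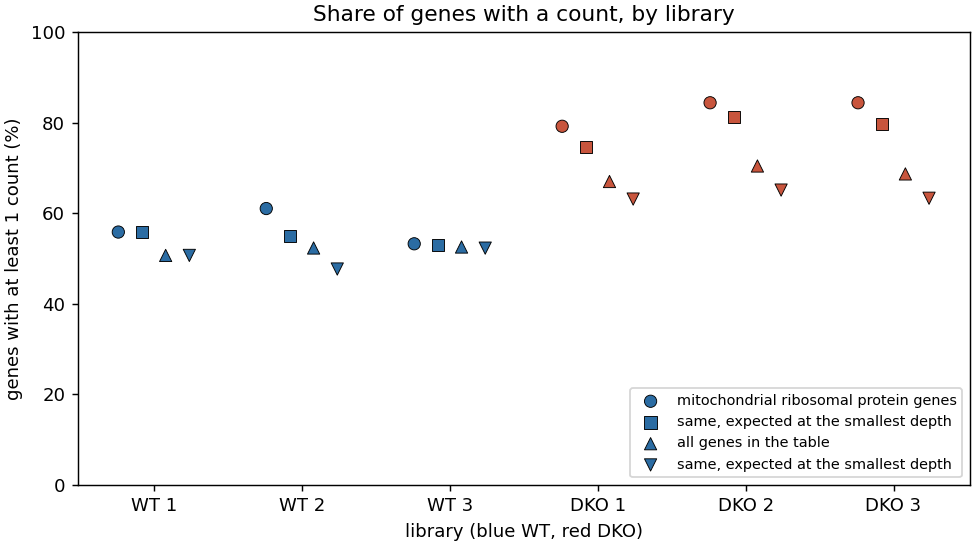
Share of genes with at least 1 count (percent, y axis) in each library (x axis, blue WT, red DKO), for the 77 mitochondrial ribosomal protein genes (circles) and all symbols (upward triangles), and the share expected at the depth of the smallest library (squares, downward triangles). DKO libraries lie at 79.2% to 84.4% for the mitochondrial ribosomal protein genes and WT libraries at 53.2% to 61.0%, with all genes shifted in the same direction.

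The summed level of these genes did not separate the groups. Together they held 645, 475 and 771 counts against 1384, 1045 and 1062, which is 0.206%, 0.0949% and 0.241% against 0.311%, 0.202% and 0.206% of all counts. In normalized CPM the sums were 3369, 1835 and 4049 against 3130, 1924 and 2057, so the ranges overlapped on both scales. A few genes in single libraries carried much of each sum. Mrps35 gave 338 of the 771 counts in WT library 3 (43.8%), Mrpl3 gave 227 of 645 in WT library 1 (35.2%) and Mrpl33 gave 623 of 1384 in DKO library 1 (45.0%). Without Mrpl33, Mrpl3, Mrpl13 and Mrps35, chosen after their values were seen, the share of all counts was 0.0946% ± 0.0231 in WT and 0.156% ± 0.0144 in DKO (SD, n = 3), with groups apart, while the normalized sums, 1646 ± 363 and 1535 ± 104, overlapped.

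Counts summed over the 48 Mrpl genes exceeded those summed over the 29 Mrps genes in 5 of the 6 libraries. The larger number of Mrpl genes alone raises this ratio, so it does not compare levels per gene. The ratio of summed Mrpl to summed Mrps counts, which no library scaling changes, was 5.20, 1.58 and 0.447 in WT beside 3.07, 1.88 and 1.87 in DKO. WT library 1 was the highest of all and WT library 3 the lowest, so the WT group enclosed the DKO group. On the log2 scale the means were 0.63 ± 1.77 in WT and 1.14 ± 0.41 in DKO (SD, n = 3), a difference of 0.52 that is smaller than the spread between WT libraries and that became 1.39 without WT library 1 and -0.38 without WT library 3. With Mrps30 and Mrps18a counted as large subunit and Mrps36 left out, the log2 ratios were 2.39, 0.85 and -1.07 against 1.68, 0.97 and 1.01. Without the 4 genes named above, they narrowed to 0.59, 0.29 and -0.01 against 0.23, 0.66 and 0.27. Per gene, the mean log2(CPM + 1) of Mrpl less that of Mrps genes was 0.28, -0.16 and -0.80 against 0.05, 0.20 and -0.11. By that measure neither subunit was higher throughout.

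**Figure D2:**
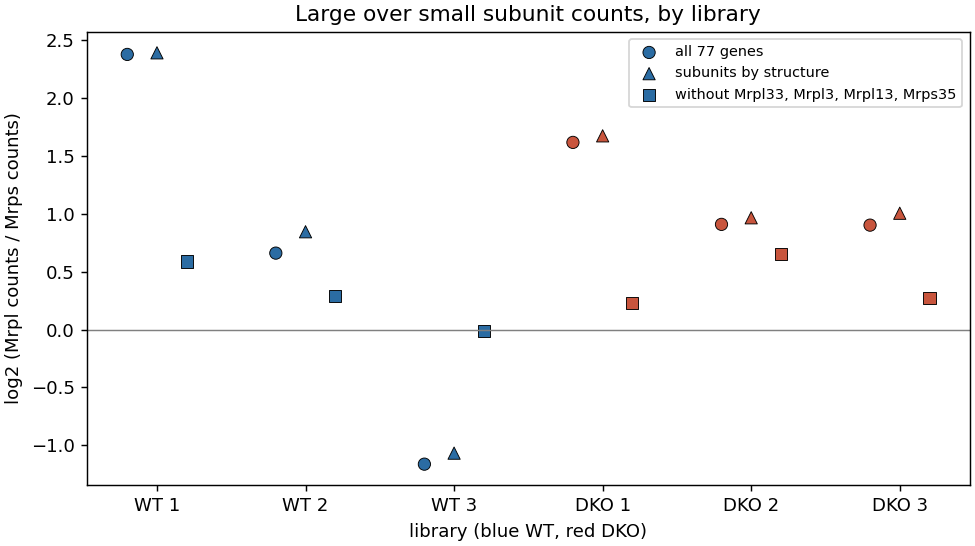
log2 ratio of summed Mrpl to summed Mrps counts (y axis) in each library (x axis, blue WT, red DKO) for all 77 genes (circles), with subunits assigned by structure (triangles), and without Mrpl33, Mrpl3, Mrpl13 and Mrps35 (squares). Circles run from -1.16 to 2.38 in WT and from 0.90 to 1.62 in DKO, and squares lie between -0.01 and 0.66 in all libraries.

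In edgeR's quasi-likelihood test, none of the mitochondrial ribosomal protein genes differed between DKO and WT at an adjusted p under 0.05, as was so for every gene tested (0%). Of the 77, 20 passed the filter, which asks for enough counts in at least 3 libraries, and were tested, 13 Mrpl and 7 Mrps genes, a share (25.97%) close to that of all symbols (25.3%). A gene could pass this filter through 1 group alone, so the tested genes do not stand for the rest. Mrpl11, Mrpl30 and Mrps15 did so through DKO and Mrpl1 through WT, in each case the group where the gene is high. The filter thus bears on the calls and counts that follow for these genes. Of these 20, 11 had log2 fold changes above 0 and 9 below, with a median of 0.34 beside -0.17 for all tested genes. The Mrpl genes had 6 above and 7 below 0 (median -0.998) and the Mrps genes 5 above and 2 below (median 0.51). That difference of -1.51 between the medians turned to 0.81 when all 73 genes with a count were fitted and to 1.10 without WT library 1, so no order of the subunits follows from it. Before adjustment, 3 genes had p under 0.05 and were higher in DKO, Mrpl11, Mrpl30 and Mrps15, where all genes gave 5.49%. Likewise 3 were lower, Mrpl1, Mrpl3 and Mrpl46, where all genes gave 6.59%. Groups did not overlap for 6 of the 20 genes higher in DKO, where the background was 12.8%, and for 1 lower, where it was 6.39%. DESeq2 on the same genes called Mrpl11 (adjusted p = 0.0311) and Mrpl30 (adjusted p = 0.0472) higher and Mrpl1 (adjusted p = 0.0441) and Mrpl3 (adjusted p = 0.0331) lower. It called 2.45% of all tested genes higher and 4.31% lower. Run without the filter on low counts, DESeq2 gave Mrpl11, Mrpl30 and Mrpl1 no adjusted p, with log2 fold changes of 4.73, 4.03 and -2.46, and did not call Mrpl3 (-3.33, adjusted p = 0.114).

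**Figure D3:**
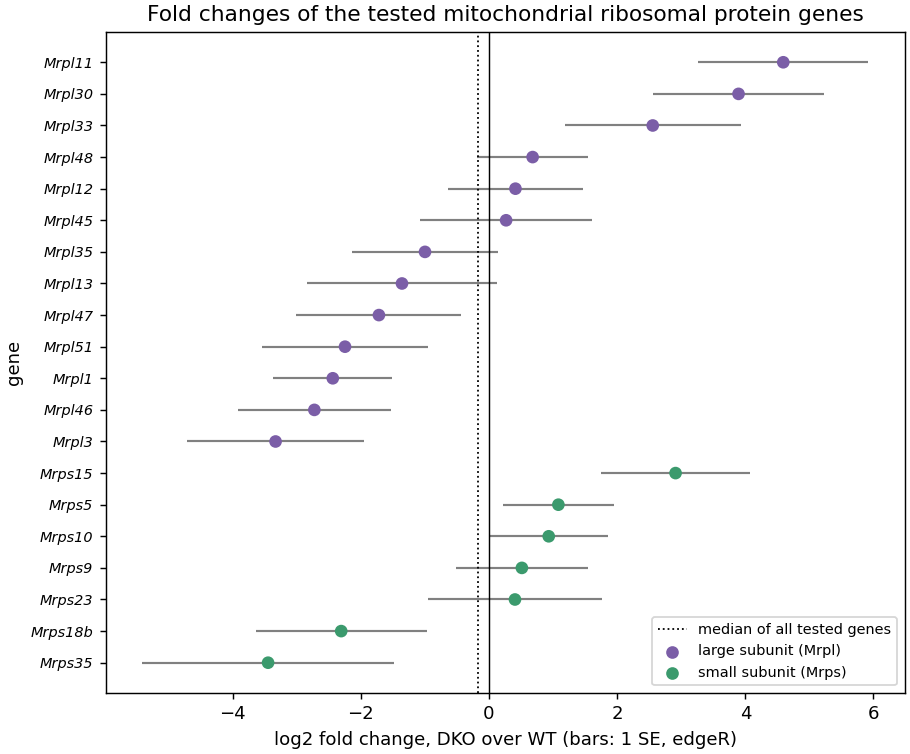
log2 fold change, DKO over WT, of the 20 tested mitochondrial ribosomal protein genes (x axis, points with bars of 1 SE from edgeR), large subunit in purple and small subunit in green. Values run from -3.45 for Mrps35 to 4.59 for Mrpl11 on both sides of the median of all tested genes at -0.17 (dotted line), and none passed the test.

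The promoters of these genes share sequence features that the choice of genes did not use. In RefSeq (GRCm38.p6), 68 of the 77 had a promoter of 250 bases before to 50 bases after the start. The median GC content was 58.2% and the median number of CG dinucleotides 21, beside 52.7% and 7 in the 27025 promoters of all genes. The core CCGGAAG, bound by ETS factors such as GABP, an activator of many nuclear genes for mitochondria, was found on either strand in 24 of 68 (35.3%), beside 9.12% of all promoters. AAGATGGC, the core of the YY1 motif, was in 12 (17.6%), beside 2.88%, and GCGCATGC, the core of the motif of NRF1, another activator of such genes, in 8 (11.8%), beside 2.80%. Promoters were not matched for base composition here, so these shares are a description. Of 18 tested genes with a promoter, the ETS core was in 2 of the 11 with fold changes above 0 and in 3 of the 7 below 0. Of the 6 tested genes that hold a core, windows of at most 30 bases in 5 are given because they show the shared elements, each 5′ to 3′ on the strand of its gene, with the core or its reverse complement in capitals: ETS in Mrpl3 (chr9:105053238-105053266), Mrpl51 (chr6:125192099-125192127) and Mrps23 (chr11:88204392-88204420), NRF1 in Mrpl33 (chr5:31613928-31613957), where an ETS core, in lower case and across the RefSeq start, follows after 1 base, and YY1 in Mrpl35 (chr6:71823743-71823772). Of the cores in capitals, those of Mrps23 and Mrpl35 lie after the RefSeq start and those of Mrpl3, Mrpl51 and Mrpl33 before it.
Mrpl3: tgagaaacggaCCGGAAGtggcccggctg
Mrpl51: caggggctaaaCCGGAAGtatttgactgg
Mrps23: tgccgcttccgCTTCCGGtaacagcccga
Mrpl33: taccggaacccGCGCATGCcccggaagtag
Mrpl35: aggcaggctgcAAGATGGCggcttccatct

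The stretches before the RefSeq start of 3 genes follow, cut where annotated exons lie. Each is shown because it had the smallest p, and the largest contrast relative to its error, within its own subunit and direction. They are Mrpl11 (chr19:4962056-4962146, plus strand), Mrpl1 (chr5:96209865-96210080, plus strand) and Mrps15 (chr4:126046678-126046924, plus strand). That of Mrpl1 lies inside its GENCODE gene, outside its exons. None of the 3 stretches holds any of the cores above on either strand, so they have no capitals.
Mrpl11: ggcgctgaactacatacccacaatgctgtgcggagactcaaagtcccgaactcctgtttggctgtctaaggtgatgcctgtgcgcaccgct
Mrpl1: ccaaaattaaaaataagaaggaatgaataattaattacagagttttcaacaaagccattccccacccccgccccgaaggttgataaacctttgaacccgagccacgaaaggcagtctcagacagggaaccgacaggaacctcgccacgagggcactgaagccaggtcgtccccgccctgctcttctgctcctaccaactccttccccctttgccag
Mrps15: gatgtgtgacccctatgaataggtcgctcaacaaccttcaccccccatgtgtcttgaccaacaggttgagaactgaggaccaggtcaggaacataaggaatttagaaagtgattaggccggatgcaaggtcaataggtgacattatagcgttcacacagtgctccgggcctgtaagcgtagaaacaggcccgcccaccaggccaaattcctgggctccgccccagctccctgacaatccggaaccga

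Of the large subunit proteins that form the entry site for translation factors, Mrpl11 and Mrpl10 had groups apart and Mrpl12 did not. Groups were apart and higher in DKO for 12.8% of all tested genes and 9.53% of all genes with a count. Mrpl11 passed the filter through DKO alone, and Mrpl10 was named after its values were seen. Mrpl11 encodes the protein at the base of the stalk where elongation factors dock (chromosome 19, 4962147 to 4966999, mm10). It had 0, 1 and 0 counts against 29, 23 and 13, a mean of 1.29 ± 2.23 normalized CPM in WT and 44.4 ± 20.3 in DKO (SD, n = 3). All DKO libraries lay above all WT libraries. Its fold change on the log2 scale, 4.59 (SE 1.33), had an edgeR adjusted p of 0.390 and was 7.08 without WT library 2, which held the only WT count. That fit had only 0 counts in WT, so the size of 7.08 was not measured. Mrpl12, the stalk protein itself, had 8, 1 and 4 counts against 22, 8 and 12, with overlapping groups (log2 fold change 0.41, SE 1.05). It was at 1.33 without WT library 1. Its anchor Mrpl10 had 2, 2 and 0 counts against 7, 17 and 32, did not pass the filter, and had 6.06 ± 5.42 against 36.4 ± 23.5 normalized CPM with groups apart.

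Mrpl1 encodes the mobile stalk on the opposite side, where spent transfer RNA leaves (chromosome 5, 96209493 to 96266727). It was the tested gene of the family with groups apart and lower in DKO, at 7, 15 and 12 counts in WT and 5, 4 and 5 in DKO. In normalized CPM this was 36.6, 58.0 and 63.0 against 11.3, 7.36 and 9.68, with a log2 fold change of -2.44 (SE 0.93, edgeR adjusted p = 0.390). The value stayed between -2.57 and -2.18 when 1 library was left out, over the 5 fits in which the gene was tested. Its DKO counts are near the limit of what these depths resolve.

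Mrpl3, at the peptidyl transferase centre (chromosome 9, 105053239 to 105079888), had 227, 43 and 8 counts in WT and 29, 15 and 23 in DKO. WT library 1 held 77.4% of its summed normalized CPM, and WT library 3, at 42.0, lay below DKO libraries 1 and 3, at 65.6 and 44.5. The log2 fold change of -3.33 (SE 1.39, edgeR adjusted p = 0.396) became -1.12 without WT library 1. Mrpl13, another protein with a bacterial counterpart, was as uneven, with 141, 17 and 1 counts against 22, 12 and 125. Its value was -1.36 (SE 1.48), or 1.59 without WT library 1.

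Mrpl30 and Mrpl33, 2 further proteins with bacterial counterparts, were higher in every DKO library than in any WT library. Mrpl30 had 2, 0 and 0 counts against 19, 16 and 45, with means of 3.48 ± 6.03 and 53.2 ± 30.2 normalized CPM (SD, n = 3). The log2 fold change of 3.89 (SE 1.34, edgeR adjusted p = 0.390) became 7.40 without WT library 1, which held both WT counts. That fit too had only 0 counts in WT, so the size of 7.40 was not measured. Mrpl33 had 21, 6 and 36 counts against 623, 113 and 142, or 109.7, 23.2 and 189 against 1409, 208 and 275 normalized CPM, so that WT library 3 and DKO library 2 nearly met. The log2 fold change, 2.56 (SE 1.38, edgeR adjusted p = 0.454), was 1.35 without DKO library 1. Annotated exons of Mrpl33 share 261 bases with Gm43809, a processed transcript on the same strand. Exons of Mrpl3 share 248 bases with Gm38077 and those of Mrpl51 share 87 with Mir3098, also on the same strand. Some reads of these genes may therefore be of uncertain origin.

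Several proteins of the large subunit are found in mitochondria and not in bacteria. Mrpl48 was even across libraries, with 15, 19 and 21 counts in WT and 60, 81 and 70 in DKO, or 78.3, 73.4 and 110.3 against 135.7, 149 and 135.6 normalized CPM. The groups did not overlap, and the log2 fold change was small against its error (0.68, SE 0.87, edgeR adjusted p = 0.755). It shares 708 exonic bases with Rab6a on the opposite strand. Mrpl45, which tethers the ribosome to the inner membrane, had 1, 49 and 0 counts against 32, 50 and 38. All 3 DKO libraries held counts while the WT total came almost wholly from library 2, without which the log2 fold change went from 0.27 (SE 1.35) to 4.80. Mrpl51 had 10, 1 and 68 counts against 14, 20 and 9 (-2.25, SE 1.29), and was at 0.13 without WT library 3. Mrpl47, which has a bacterial counterpart, had 8, 2 and 28 against 2, 27 and 2 (-1.72, SE 1.29; -0.24 to -3.70 with 1 library left out), and Mrpl35, which has one too, 24, 7 and 2 against 21, 15 and 3 (-0.998, SE 1.14; 0.55 without WT library 1).

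**Figure D4:**
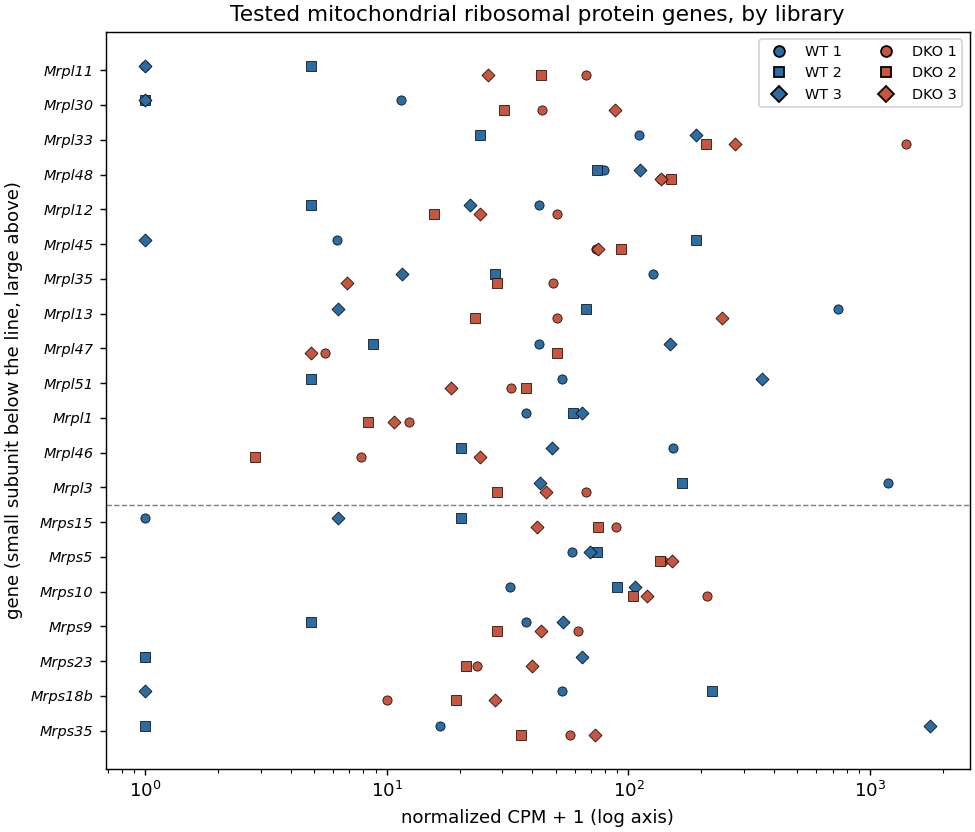
Normalized CPM plus 1 (x axis, log scale) of the 20 tested mitochondrial ribosomal protein genes in each library (blue WT, red DKO, marker by replicate), ordered by fold change within each subunit. Points at the left edge are libraries with 0 counts, some lying over each other, and Mrps35, Mrpl3, Mrpl13 and Mrpl33 each have a library far to the right of the others.

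Mrpl46 and the small subunit gene Mrps11 lie head to head on chromosome 7, with RefSeq starts 42 bases apart, and both had most of their counts in WT. This pair was picked after its values were seen. Mrpl46 (78775236 to 78783531) had 29, 5 and 9 counts in WT and 3, 1 and 12 in DKO, or 151, 19.3 and 47.3 against 6.79, 1.84 and 23.2 normalized CPM. DKO library 3 lay above WT library 2, and the log2 fold change of -2.72 (SE 1.19, edgeR adjusted p = 0.404) became -1.53 without WT library 1. Mrps11 (78783119 to 78792989) had 0, 32 and 8 counts in WT and 0 in each DKO library and was not tested. WT library 1 and the DKO libraries were thus alike at 0, and WT library 2 held 74.6% of its normalized CPM. The libraries that held the counts differed, WT library 1 for Mrpl46 and WT library 2 for Mrps11. The genes share 173 exonic bases on opposite strands, and the strand setting of the counting is not given, so reads there cannot be assigned. The bases between the RefSeq start of Mrpl46 and the first annotated base of Mrps11 are shown because both genes start beside them (chr7:78783090-78783118, plus strand, the direction of Mrps11). They lie before the RefSeq start of Mrpl46, which is on the minus strand, but inside its longer GENCODE gene, and hold none of the cores above.
Mrpl46-Mrps11: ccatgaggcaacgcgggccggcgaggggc

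Of the 7 small subunit genes tested, Mrps5 and Mrps15 had every DKO library above every WT library, where the background was 12.8%, and none had the reverse, where it was 6.39%. Mrps5 (chromosome 2, 127587222 to 127606829), a core protein near the path by which messenger RNA enters, had 11, 19 and 13 counts in WT and 61, 73 and 78 in DKO. That was 57.5, 73.4 and 68.3 against 138, 134 and 151 normalized CPM, groups far apart relative to their spread, with a log2 fold change of 1.08 (SE 0.87, edgeR adjusted p = 0.605) that stayed between 1.06 and 1.24 with any library left out. The SE reflects a spread that edgeR shares across genes, with a common coefficient of variation of 0.915. Mrps15 (chromosome 4, 126046925 to 126055532), a protein that binds the ribosomal RNA early in assembly in bacteria, had 0, 5 and 1 counts against 39, 40 and 21, with means of 8.19 ± 9.99 and 67.5 ± 24.4 normalized CPM (SD, n = 3). Its groups did not overlap. The log2 fold change of 2.91 (SE 1.16, edgeR adjusted p = 0.390) became 4.56 without WT library 2.

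Mrps10, in the head of the small subunit, had 6, 23 and 20 counts against 93, 56 and 61, with WT library 3 (105) above DKO library 2 (103) in normalized CPM and a log2 fold change of 0.93 (SE 0.93). Mrps9, of the same region, had 7, 1 and 10 against 27, 15 and 22 (0.51, SE 1.03). Mrps23, a mitochondria-specific protein, had 0, 0 and 12 against 10, 11 and 20 (0.41, SE 1.35), or 6.44 without WT library 3. With only 0 counts left in WT, the size of 6.44 was not measured. For each of these 3 genes WT library 3 was the highest WT library and lay above at least 1 DKO library, and for Mrps23 above all of them.

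Below 0 lay Mrps35, a mitochondria-specific protein, and Mrps18b, a paralog of Mrps18a. Mrps35 (chromosome 6, 147042764 to 147073991) had 3, 0 and 338 counts in WT and 25, 19 and 37 in DKO, and WT library 3 held 90.8% of its summed normalized CPM. Its log2 fold change of -3.45 (SE 1.96, edgeR adjusted p = 0.472) turned to 2.91 without that library. Mrps18b had 10, 57 and 0 counts against 4, 10 and 14 (-2.31, SE 1.33), or -0.47 without WT library 2. In 10 of the 20 genes (50%), a single library held more than 50% of the normalized CPM, beside 29.7% of all genes tested.

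The other 57 genes did not pass the filter, 53 of them with a count and 4 with none. Some had more counts in all than a tested gene such as Mrpl1 (48), but fewer than 3 libraries at the CPM the filter asks for, among them Mrps31 with 4, 0 and 80 against 7, 26 and 7 and Mrps21 with 35, 3 and 3 against 7, 24 and 9. Mrpl32, which the inner membrane m-AAA protease matures before it joins the ribosome, Mrpl53, Mrps28 and Mrps34 had 0 counts in all 6 libraries. Of the 73 genes with a count, 4 had 0 in every WT library and at least 1 in every DKO library, where 3.67% of all genes with a count did so, and none showed the reverse, where the background was 0.141%. They were Mrpl9 (5, 29 and 12 counts in DKO libraries 1, 2 and 3), Mrpl42 (3, 4 and 7), Mrps24 (2, 5 and 2) and Mrpl27 (1, 4 and 3). With the floor set at 3 counts summed over WT, the DKO mean was 6.26-fold the floor for Mrpl9, 1.97-fold for Mrpl42, 1.25-fold for Mrps24 and 1.10-fold for Mrpl27. These folds leave out the counting error of the DKO libraries, and the genes were picked for their 0 counts in WT. Mrpl27 in DKO library 1, at 2.26 normalized CPM, lay under the floor of 4.68, so the last are at the edge of detection. Mrpl43 had 13 counts in WT library 1 and 0 in the other 5 libraries.

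Counting tested and untested genes together, 13 of the 73 (17.8%) had every DKO library above every WT library in normalized CPM, beside 9.53% of all genes with a count, and 2 (2.74%) lay the other way, beside 3.98%. The share higher was 17.4% of the Mrpl genes (8) and 18.5% of the Mrps genes (5). Untested genes among them, named because their groups were apart, included Mrps17 with 0, 0 and 1 counts against 15, 7 and 16 (1.75 ± 3.03 against 25.9 ± 11.4 normalized CPM) and Mrps6 with 1, 0 and 0 against 4, 13 and 9. Lower was Mrpl15 with 2, 4 and 4 against 3, 5 and 4, a raw count that hardly moved and a normalized level of 15.6 ± 5.28 against 7.91 ± 1.22. A WT count is worth more in normalized CPM than a DKO count. Of the symbols that structures place elsewhere, Mrps30 had 0, 8 and 1 counts against 0, 2 and 0, Mrps18a 0, 3 and 10 against 10, 4 and 9, and Mrps36 1, 5 and 0 against 0, 5 and 12. Of the 77 genes, 32 share exonic bases with another annotated gene, 9 of them among the 20 tested, such as Mrpl47 with Ndufb5 (616 bases) and Mrpl13 with Mtbp (330 bases), and their reads may be split or shared.

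Of the genes for mitochondrial ribosome proteins that carry other names, the tested Dap3 and Ptcd3 and the untested Aurkaip1 had groups apart and higher in DKO, where 12.8% of tested genes and 9.53% of genes with a count did so. Both tested genes passed the filter through the DKO libraries alone, where they are high, so the filter bears on this comparison. Dap3, the GTP-binding protein of the small subunit, had 1, 9 and 1 counts in WT and 44, 173 and 141 in DKO, with means of 15.1 ± 17.1 and 230.3 ± 116 normalized CPM (SD, n = 3). The log2 fold change was 3.86 (SE 1.16). It did not pass in edgeR (adjusted p = 0.390), and DESeq2 called it (adjusted p = 0.00935), also without the filter on low counts (adjusted p = 0.0463). Ptcd3, a pentatricopeptide repeat protein at the messenger RNA channel, had 3, 5 and 1 against 26, 67 and 39 (2.63, SE 1.00), and every DKO library of both genes lay above every WT library. Ict1, a peptidyl-tRNA hydrolase built into the large subunit, had 32, 49 and 2 against 75, 46 and 60 (0.01, SE 1.06). Of 6 such symbols, 3 were tested, and edgeR called 0 of them. Aurkaip1 and Gadd45gip1 had no WT count and 1, 6 and 1 and 0, 1 and 9 in DKO, and Chchd1 had 0 in all libraries. The ribosomal RNA genes of the mitochondrial genome were looked up by symbol, were not found among the gene symbols, and so were not analysed here.

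For the factors and enzymes that work with the mitochondrial ribosome, edgeR called no gene in any list, and the lists lay on different sides of 0. Of 16 translation factors and helpers, 8 were tested, 6 above 0 and 2 below (median 1.29, beside -0.17 for all tested genes). Mtrf1, a release factor, had 0, 1 and 0 counts in WT and 63, 13 and 12 in DKO (5.10, SE 1.48), and Mss51, listed for the role of its yeast counterpart, 1, 0 and 0 against 37, 13 and 26 (4.76, SE 1.38). Both had an edgeR adjusted p of 0.390, and DESeq2 called both (adjusted p = 0.0231 and 0.0242). Mtfmt, which formylates the initiator transfer RNA, had 11, 3 and 22 against 187, 65 and 98 (1.99, SE 1.09). Mtif2, an initiation factor, had 0, 3 and 4 against 16, 18 and 18 (1.64, SE 1.09), while the elongation factors Gfm1 (-0.42, SE 1.00) and Tufm (0.93, SE 1.68, with 233 of its DKO counts in library 2) overlapped between groups. Of 22 aminoacyl-tRNA synthetases and amidotransferase genes, which charge the mitochondrial transfer RNAs, 15 were tested, 6 above 0 and 9 below (median -0.90). Pet112, a subunit of the glutamyl-tRNA amidotransferase, was the lowest, with 13, 186 and 112 counts against 46, 4 and 3 (-3.55, SE 1.49, edgeR adjusted p = 0.399, DESeq2 adjusted p = 0.0332). Pars2 was at -2.36 (SE 1.28), or 0.05 without WT library 1. Of 25 assembly genes 7 were tested, 2 above 0 and 5 below (median -0.53), with the GTPase gene Mtg2 at 6, 144 and 22 against 24, 34 and 22 (-2.14, SE 1.13) and the RNA helicase gene Dhx30 at 3, 3 and 12 against 22, 61 and 18 (1.13, SE 1.03). Of the 8 tested translation factors, 4 had groups apart and higher in DKO, where the background was 12.8%, as had the untested Tsfm (0, 1 and 0 counts against 5, 3 and 15). Mtrf1, Mss51 and Mtif2 passed the filter through the DKO libraries alone, where they are high. The filter thus bears on this count and on the median of that list. Groups of every tested synthetase and assembly gene overlapped. Whether these lists differ from each other was not tested.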

How the data were processed

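Per the labels' protocols, libraries were prepared with the QIAseq FX Single Cell RNA kit, which enriches polyadenylated RNA and amplifies its cDNA. The authors deposited unnormalized counts of reads for each gene symbol. Their tools, per the submitters' processing notes, were STAR, CASAVA, edgeR and R 3.6.3 with mm10, with no roles stated. The counting tool and strand setting were not given in the sources used here. Columns were matched by name, with 0 left unmatched.

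The main test was that of edgeR 4.0.16 in R 4.3.3, with filterByExpr (minimum count 10), TMM, quasi-likelihood F test with robust estimation, DKO against WT, no covariate, Benjamini-Hochberg adjustment over the 8895 genes kept, threshold 0.05. The SE follows from the F statistic (log2 fold change over its root). Normalized CPM divide counts by the kept library size times the TMM factor. Alternatives were DESeq2 1.42.0, limma-voom (limma 3.58.1), other scalings and filters, the replicate number as a block, and each library left out. Floors are 3 counts and cover only the counting error of the group with 0 counts. The fits were tested on simulated data. The simulated WT and DKO libraries had the same spread, while the real WT libraries were less alike than the real DKO libraries. At a spread near that of these data, edgeR called none of the changed genes there, limma-voom called few, and DESeq2 called some together with false ones. The lack of edgeR calls above therefore does not show that genes are unchanged. Positions and exon lengths come from GENCODE mouse release 21 (mm10), promoters from RefSeq (GRCm38.p6).

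The genes and lists were chosen with earlier results of these data known. The rule named Bnip3l and Bnip3, up to 6 tested genes per subunit and direction with the smallest p, the 4 of highest mean normalized CPM per subunit, those called by edgeR or DESeq2, Mrps30, Mrps18a and Mrps36, and up to 2 genes per list with the smallest p; other genes were named after their values were seen. Stretches of promoter were trimmed at annotated exons, and Mrps35 had no promoter in the table.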

Additional observations from a re-analysis of the deposited data

How the results depend on the processing

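With low depth and a large spread, calls rested on the method. DESeq2 called 4 of the mitochondrial ribosomal protein genes, 4 genes of the other translation lists and 601 genes in all, where edgeR called 0 of each, with 488 and 586 genes at an unadjusted p under 0.05 higher and lower. DESeq2 without the filter on low counts, added after the data were seen, called 0, 1 (Dap3) and 254, but gave Mrpl11, Mrpl30, Mrpl1, Mtrf1 and Mss51 no adjusted p at log2 fold changes of 4.73, 4.03, -2.46, 5.24 and 4.98, so these calls were not judged. EdgeR without the filter called 0, 0 and 130. Limma-voom, both other scalings, a mean CPM of at least 10, no robust estimation and each library left out gave 0 calls, as did an adjusted p of 0.1 for the family and for all genes. The difference between the subunit medians, -1.51, was 0.81 without the filter, 0.81 with a mean CPM of at least 10, 0.83 in DESeq2 without the filter and -0.93 in limma-voom, and ranged from -1.57 to 1.10 with 1 library left out. Filters change which genes are tested; the cause of the other shifts was not tested. The DKO excess of genes detected, 20, was 24.3 at 3 or more counts and 18.5 at equal depth. With 1 library left out, 16 of the 20 tested genes moved by over 1.5-fold and 7 changed sign. Ranges were -0.067 to 1.33 for Mrpl12, -2.81 to 1.59 for Mrpl13, -1.53 to 0.55 for Mrpl35, -0.23 to 4.80 for Mrpl45, -2.78 to 0.13 for Mrpl51, -0.17 to 6.44 for Mrps23, -3.996 to 2.91 for Mrps35 and, of the lists, -2.85 to 0.051 for Pars2. The upper value for Mrps23 comes from a fit with only 0 counts in WT, so its size was not measured.

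Libraries with the same replicate number hardly deviated together (correlations of 0.023 to 0.037), though each correlated best with its own number, so they were not treated as pairs. With the replicate block, edgeR again called 0 genes, the difference between the subunit medians was -1.70, and Mrps35 turned to 0.89.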
